A study of Rattus norvegicus with 29 samples.

Results

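The transcripts described here are those that lay lower in rat kidney tubule cells after 24 h of TCDD and also after 24 h of trichloroethylene. With acetaminophen and gentamicin they were within a set bound of control. They number 150 of 28420 transcripts in the tables. RNA was sequenced from primary cultures of renal proximal tubule epithelial cells of the rat, in 29 libraries and 10 groups. Cultures received 2,3,7,8-Tetrachlorodibenzodioxin (TCDD), trichloroethylene, acetaminophen or gentamicin, or were controls, and were collected at 24 h or 6 h. Each group has 3 libraries except the control at 6 h, which has 2. The groups differ in compound and time alone as far as the labels say, and the sources used here give no strain, animal age, dose or vehicle. No label ties a replicate to its own animal or culture, and p-values therefore cover only the spread between these libraries, which may be technical.

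Proximal tubule cells reabsorb most of what the glomerulus filters and take up and metabolise many drugs and toxicants. TCDD, a dioxin, binds the aryl hydrocarbon receptor, a transcription factor that moves to the nucleus and is best known for inducing cytochrome P450 enzymes of the CYP1 family. Trichloroethylene is an industrial solvent that is oxidised by cytochrome P450 and also conjugated to glutathione, and the products of the glutathione route are toxic to the proximal tubule. Acetaminophen, an analgesic, and gentamicin, an aminoglycoside antibiotic, both injure tubule cells at high exposure. The files give Ensembl transcript identifiers without gene names, and no table used here pairs them, so members are described by level, size and length and 4 are given by identifier. The cell type of the label could not be checked against marker genes for the same reason, and no sequence is shown.

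Members were chosen by measured values. The level of a transcript is its TPM, a length-scaled share of the RNA molecules of a library that sums to the same total in each. L is the log2 ratio of the compound's mean TPM to the control's mean TPM at the same time, with 1 TPM added to both, so it understates the change of low transcripts. A control mean of 1 to 500 TPM over the 5 control libraries held for 13730 transcripts. Of these, 5738 had an L of -0.6 or lower with TCDD, which is 41.8%, and 1566 had one with trichloroethylene, which is 11.4%. Both conditions held for 1312, and 540 of them were within 0.5 of control with acetaminophen. Gentamicin was within 0.5 as well in 189, and the 150 with the lowest trichloroethylene L were kept. The last member had a trichloroethylene L of -0.646 and the next transcript one of -0.645, while the TCDD L nearest the threshold was -0.604 inside and -0.589 outside. Since these 24 h values made the choice, they are given as a description without a test.

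Library totals ran from 8243698 to 11446612 estimated counts. Replicates differed by more than sampling noise, with chi-square values of 2.98 to 28.3 per degree of freedom, the highest between TCDD replicates 2 and 3 at 24 h. The fragment length of a library, taken as transcript length less effective length, was 230.3 to 238.1 bases with TCDD and 248.3 to 259.01 bases with trichloroethylene at 24 h, against 269.9 to 288.9 bases in the 24 h controls. Its part in the 24 h values was not tested. The median L over the 13730 transcripts was -0.40 with TCDD at 24 h, -0.22 with gentamicin, 0.10 with acetaminophen and 0.01 with trichloroethylene, so a TCDD value is best read against a shift of -0.40. In bulk RNA, fewer cells of a type and less RNA per cell cannot be told apart.

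At 24 h the L of the members was lower with TCDD than with trichloroethylene, a gap that carries the shift of all transcripts with TCDD. The median L of the members was -1.26 with TCDD, ranging from -4.13 to -0.60, and -0.81 with trichloroethylene, ranging from -1.69 to -0.65. The median level over members was 10.1 TPM with TCDD, 17.7 TPM with trichloroethylene and 34.9 TPM in control. It was 30.6 TPM with acetaminophen and 30.8 TPM with gentamicin. Within the bound of the rule, the median L was -0.18 with acetaminophen, beside 0.10 over the 13730, and -0.16 with gentamicin, beside -0.22. It was below 0 in 105 members with acetaminophen, where 6098 of the 13730 were, and in 100 with gentamicin, where 8403 were. TCDD gave the lower L of the pair in 127 members and trichloroethylene in 23, where TCDD was the lower in 71.7% of the 13730. After rescaling each compound so that the median transcript kept its control level, the member medians were -0.91 with TCDD and -0.82 with trichloroethylene. They were then -0.29 with acetaminophen and 0.07 with gentamicin, and 127 members were within 0.5 with each of these. An L of -1 or lower was reached by 104 members with TCDD (26.0% of the 13730) and by 37 with trichloroethylene (4.05% of the 13730), and 32 reached it with both. With TCDD, 28 members had an L of -2 or lower (5.2% of the 13730), and 8 had one of -3 or lower (0.867%).

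**Figure D1:**
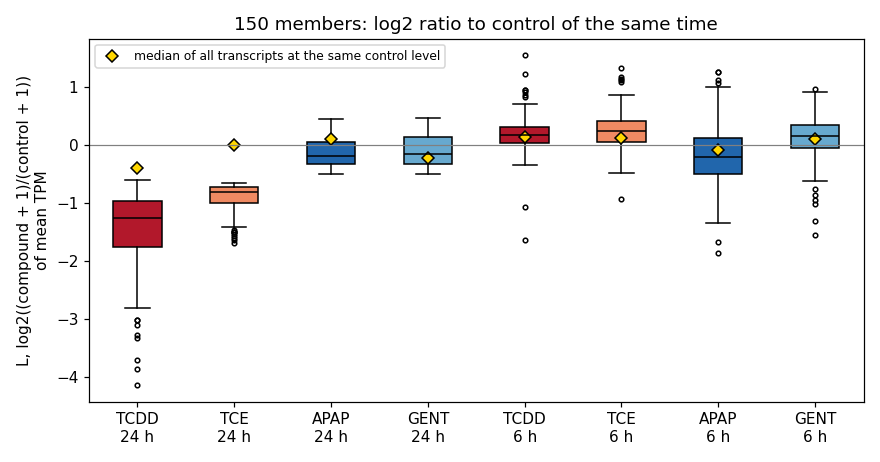
Box plots of L (log2 of mean TPM + 1 over control mean TPM + 1) for the 150 members, by compound (TCE, trichloroethylene; APAP, acetaminophen; GENT, gentamicin) at 24 h and 6 h. Boxes span the quartiles with the median as a line, whiskers reach 1.5 box heights, circles lie beyond, and diamonds mark the median of the 13730 transcripts at the same control level. The TCDD and trichloroethylene boxes at 24 h lie below 0, which the choice of members fixed. At 6 h the TCDD (0.03 to 0.32) and trichloroethylene (0.05 to 0.42) boxes lie above 0. The acetaminophen (-0.5 to 0.13) and gentamicin (-0.05 to 0.34) boxes at 6 h include 0.

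**Figure D2:**
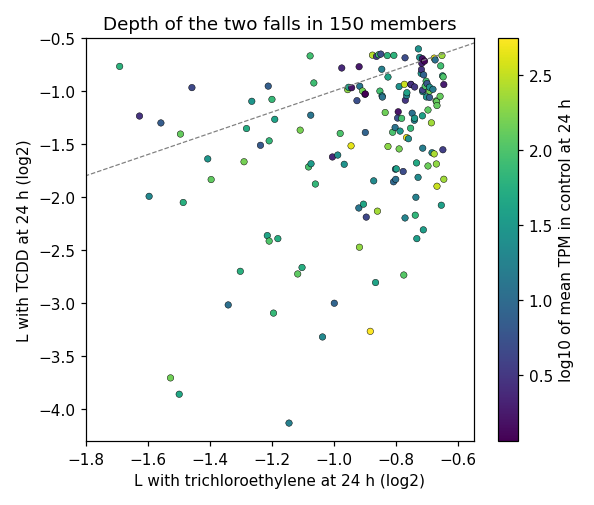
Each point is 1 of the 150 members, with L for trichloroethylene at 24 h across and L for TCDD at 24 h up the side; colour gives the log10 of the control mean TPM at 24 h and the dashed line marks equal values. Below the line lie 127 members, where TCDD gave the lower value.

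In most members the libraries of the 2 compounds lay apart from the controls. All 3 TCDD libraries lay below all 3 controls in 138 of the 150 members, where 48.6% of the 13730 transcripts did so. All 3 trichloroethylene libraries lay below all controls in 137 members, where 24.2% of the 13730 did. The rule chose members by low means in these same libraries, so both counts follow largely from the choice. Taken 1 library at a time against the mean control, the member median was -1.29, -1.49 and -1.18 in TCDD replicates 1, 2 and 3, and -0.79, -0.97 and -0.80 in the trichloroethylene replicates. The controls themselves spread from -0.20 in replicate 3 to 0.10 in replicate 1. Acetaminophen replicate 2 was the lowest library outside the TCDD and trichloroethylene groups at 24 h, with a median of -0.41, while its replicates 1 and 3 had -0.14 and -0.01. Fragment length was 232.7 bases in that library and 253.9 and 274.7 bases in the other two, and its part was not tested.

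Summed over members, the level was 3753, 3936 and 4333 TPM in the TCDD libraries at 24 h and 5531, 6068 and 6104 TPM in the trichloroethylene libraries. It was 8764 to 10800 TPM with acetaminophen and 9838 to 10760 TPM with gentamicin, against 9976, 11100 and 11330 TPM in control. The TCDD libraries were the lowest, the trichloroethylene libraries next, and neither overlapped any other 24 h group. The rule chose members by these same 24 h values, so their separation from control, acetaminophen and gentamicin follows largely from the choice. At 6 h the sums were 9846 to 11650 TPM with TCDD, 10470 to 11610 TPM with trichloroethylene, 8543 to 8756 TPM with acetaminophen and 10070 to 11430 TPM with gentamicin, against 9763 and 10030 TPM in control. The acetaminophen libraries at 6 h thus lay below every other 6 h library.

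**Figure D3:**
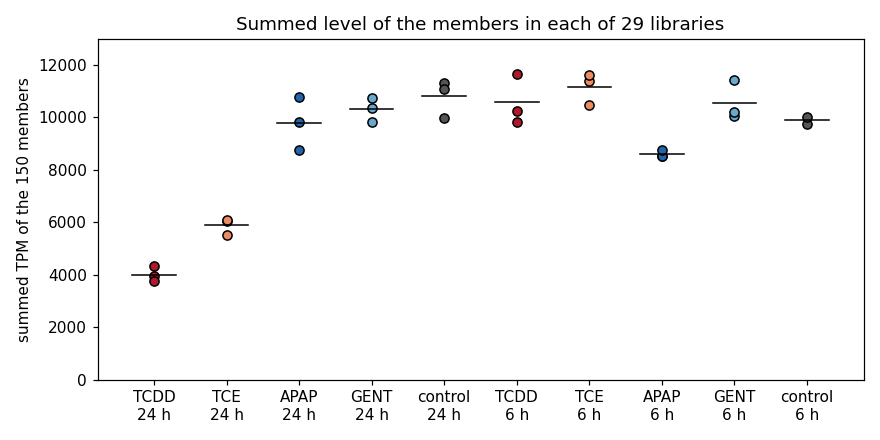
Summed TPM of the 150 members in each library, by group; points are libraries and bars the group mean (3 libraries a group, 2 in control at 6 h). The TCDD libraries at 24 h (3753 to 4333 TPM) and the trichloroethylene libraries at 24 h (5531 to 6104 TPM) lie below all others, and the acetaminophen libraries at 6 h (8543 to 8756 TPM) come next. The low sums at 24 h follow largely from the choice of members.

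The shift of all transcripts with TCDD bears on how many members would reach the threshold. When each compound's 24 h libraries were rescaled to the median transcript, as above, TCDD gave the lower L of the pair in 75 of the 150 members, beside 50.1% of the 13730. An L of -0.6 or lower with TCDD was reached by 107 members, where 27.5% of the 13730 reached it. With trichloroethylene 11.8% of the 13730 reached it, and the members could not cross the threshold because the rescaling moved them downward, by no more than 0.016. These counts rest on values that chose the members and are given as a description. Chosen anew on that scale, the rule gave 138 transcripts, of which 70 were among the 150.

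Because the choice used these libraries, the same measure was also read in libraries that a choice had not used. The rule was run with 1 replicate number left out of every 24 h group, and the left-out libraries, 1 per group, were then read. This was added after the data were seen. Each run chose its own 150 transcripts, of which 93, 91 and 80 were among the members without replicates 1, 2 and 3. The values that follow are thus of those choices and not of the 150 members. Chosen without replicate 1, the 150 transcripts had a median L of -1.44 with TCDD and -0.89 with trichloroethylene in the left-out libraries. An L of -0.6 or lower was seen in 139 with TCDD, where 42.3% of the 13730 had one, and in 116 with trichloroethylene, where 13.8% did. Without replicate 2, the medians were -1.55 and -1.0, and 142 with TCDD (52.7% of the 13730) and 125 with trichloroethylene (16.8%) reached -0.6. Without replicate 3, the medians were -0.91 and -0.51, and 100 with TCDD (31.1%) and 65 with trichloroethylene (8.43%) did. In the reading of replicate 3 trichloroethylene had a median of -0.88 in the libraries used for the choice, so the left-out libraries showed a smaller difference. All compounds were read against the same left-out control library. In the left-out libraries of replicates 1, 2 and 3, acetaminophen was within 0.5 of control in 91, 69 and 81 of the 150, where 45.6%, 45.6% and 44.1% of the 13730 were. Those counts are 60.7%, 46.0% and 54.0% of 150, so for replicate 2 the share was close to that of all transcripts. The median acetaminophen L in these libraries was -0.27, -0.53 and 0.35, beside 0.08, -0.03 and 0.26 over the 13730. It was -0.6 or lower in 37, 65 and 6 of the 150, where 20.3%, 24.8% and 15.5% of the 13730 were. In the left-out replicate 2 the chosen transcripts were thus lower with acetaminophen as well. Gentamicin was within 0.5 in 98, 119 and 115, where 44.7%, 47.2% and 42.8% of the 13730 were.

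The member with the lowest trichloroethylene L was ENSRNOT00000048744, with a length of 2038 bases and counts that were not whole, so that it shared reads with another transcript. At 24 h it stood at 31.5, 26.8 and 47.65 TPM in the TCDD libraries and 18.4, 15.25 and 20.8 TPM in the trichloroethylene libraries, against 63.8, 70.9 and 47.85 TPM in control. Here trichloroethylene was the lower of the pair, and TCDD replicate 3 lay just under the lowest control. Acetaminophen libraries had 78.9, 53.8 and 95.25 TPM and gentamicin libraries 56.6, 67.6 and 53.7 TPM at 24 h. In 2 acetaminophen libraries it was above all controls, and the gentamicin libraries lay among the controls. At 6 h the TCDD libraries held 57.2, 61.1 and 87.0 TPM and the trichloroethylene libraries 82.8, 79.15 and 62.5 TPM, against 52.4 and 61.9 TPM in control. The trichloroethylene libraries at 6 h lay above both controls, but the log2 change was 0.26 ± 0.20 (SE, edgeR adjusted p = 0.55).

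ENSRNOT00000065677, of 1601 bases and also without whole counts, lay lower with TCDD than with trichloroethylene. The TCDD libraries had 4.19, 4.68 and 4.54 TPM and the trichloroethylene libraries 6.85, 4.78 and 7.00 TPM at 24 h, against 20.3, 21.7 and 20.4 TPM in control. Both groups lay well apart from the controls, with an L of -1.99 and -1.60. The 24 h acetaminophen libraries had 27.9, 24.1 and 25.1 TPM, above all controls. At 6 h the acetaminophen libraries had 14.3, 14.2 and 13.5 TPM, against 25.9 and 29.1 TPM in control, so that it fell, with -0.91 ± 0.17 on the log2 scale (SE, adjusted p = 9.5e-05 by edgeR). The acetaminophen libraries thus lay below the controls at 6 h and above them at 24 h. Gentamicin libraries had 15.7, 13.9 and 20.5 TPM at 24 h, 2 of them below all controls. At 6 h they had 18.35, 23.2 and 22.8 TPM, below both controls, but this was not called (-0.48 ± 0.17, edgeR adjusted p = 0.07).

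A pair of members rose with acetaminophen at 6 h. ENSRNOT00000023289, of 1515 bases, had 84.5, 84.5 and 99.0 TPM in these libraries, against 42.3 and 38.8 TPM in control, which is 1.20 ± 0.12 on the log2 scale (SE, adjusted p = 5.2e-09 by edgeR). In the 24 h libraries TCDD gave 9.22, 7.835 and 11.2 TPM and trichloroethylene 26.2, 18.3 and 24.85 TPM, against 59.9, 53.4 and 47.8 TPM in control. With gentamicin at 6 h its log2 change was 0.35 ± 0.12 (adjusted p = 0.048), and this call was lost under 10 of 15 other settings, with adjusted p of up to 0.34. ENSRNOT00000009225, of 1577 bases, had 113.6, 117.1 and 118.5 TPM with acetaminophen at 6 h, against 65.3 and 64.1 TPM in control, a log2 change of 0.905 ± 0.105 (edgeR, adjusted p = 8.7e-08). In the 24 h libraries TCDD gave 6.85, 8.47 and 7.73 TPM and trichloroethylene 34.5, 26.95 and 32.75 TPM, against 75.8, 76.0 and 67.7 TPM in control. For both, the 24 h acetaminophen libraries also lay above all controls, within the bound of 0.5 that the rule set. Within the same bound, the 24 h gentamicin libraries had 79.4, 76.8 and 62.0 TPM for ENSRNOT00000023289, above all controls. For ENSRNOT00000009225 they had 52.3, 58.0 and 50.65 TPM, below all controls.

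**Figure D4:**
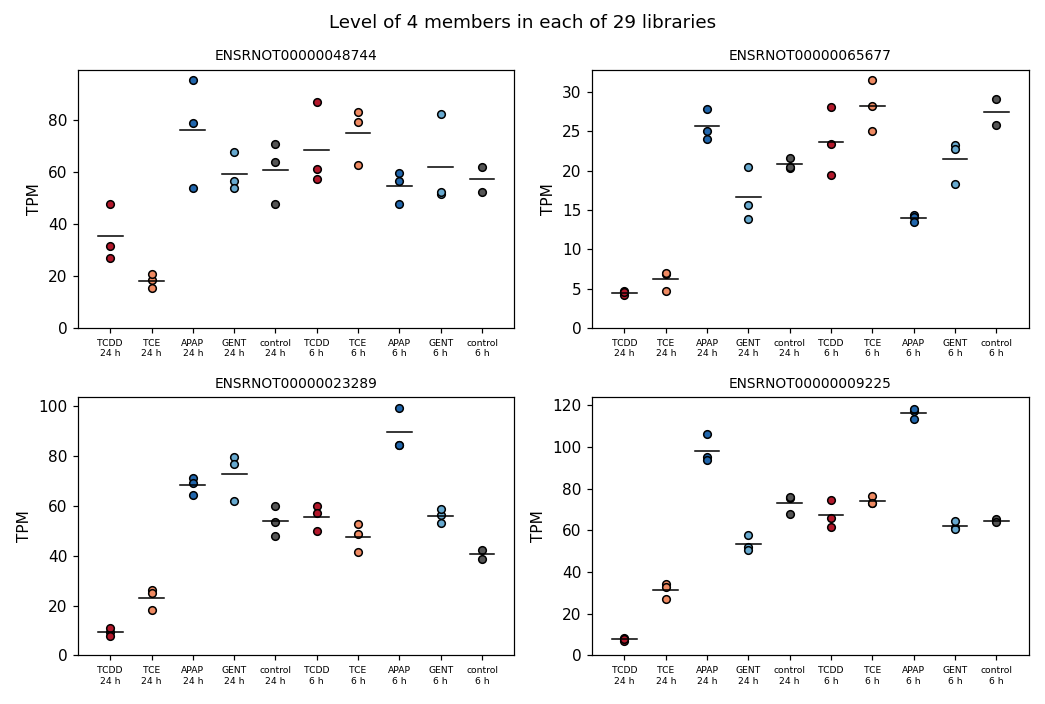
TPM of 4 members in every library, by group (TCE, trichloroethylene; APAP, acetaminophen; GENT, gentamicin); points are libraries, bars the group mean, and each panel has its own linear axis from 0. In all 4 panels the TCDD and trichloroethylene libraries at 24 h lie below all 24 h controls, and the lower panels show the acetaminophen libraries at 6 h above both 6 h controls.

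Further members illustrate the range and were chosen after their values were seen. The most abundant in control, of 1055 bases, had 51.6, 61.0 and 60.2 TPM in the TCDD libraries and, in the trichloroethylene libraries, 300.5, 289.6 and 324.6 TPM at 24 h, against 614.5, 561.1 and 513.3 TPM in control. Its TCDD libraries were far below its trichloroethylene libraries, with an L of -3.27 and -0.88. The member with the lowest TCDD L, of 979 bases, had no count in any TCDD library at 24 h, while trichloroethylene libraries had 8.02, 7.96 and 4.80 TPM, against 12.3, 26.0 and 11.2 TPM in control. Its TCDD L of -4.13 is set by the 1 TPM added to a level of 0 and is no measure of the size of the difference. Its counts were not whole, so reads were shared with another transcript, and at 6 h its level ranged from 10.8 to 33.9 TPM across the TCDD libraries alone. It was the only member listed at 0 counts in all libraries of any group.

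The 6 h libraries of the compounds took no part in the choice, and the 6 h controls entered only the level filter, so these comparisons were tested. The test was edgeR's quasi-likelihood test on estimated counts over 15990 transcripts, of which 147 were members, and a transcript was called where its p, adjusted after Benjamini and Hochberg over all of them, was under 0.05. The other 3 members, with control means of 1.25 to 3.45 TPM, did not pass the low-count filter. All comparisons with control share the same 2 control libraries, and the median SE of a member's log2 change was 0.161 or 0.162.

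With TCDD at 6 h no member was called higher (0.0% of all tested transcripts) or lower (0.0%), and the smallest adjusted p of a member was 0.70. The median log2 change of the members was 0.06, beside 0.03 over all tested transcripts. At an unadjusted p under 0.05, 7 members were higher (4.76% of 147), where 4.08% of all transcripts were, and 3 were lower (2.04%), where 2.95% were. Without TCDD replicate 3, whose fragment length was 277.8 bases against 249.9 and 254.2 bases in the other two, the median was -0.03, so its sign rests on that library. It was 0.023 without control replicate 2, and 0.169 in limma on log2(TPM + 1), where that of all transcripts was 0.13. DESeq2 and limma on log2(TPM + 1) called 0 members as well.

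With trichloroethylene at 6 h, too, no member was called higher (0.0% of all tested) or lower (0.0%) by edgeR, DESeq2 or limma. The median log2 change of the members was 0.16, beside 0.01 over all transcripts, and the smallest adjusted p was 0.36. At an unadjusted p under 0.05, 26 members were higher (17.7% of 147), where 7.2% of all transcripts were, and 2 were lower (1.36%), where 5.75% were. Fragment length was 269.3 to 278.2 bases in these libraries, against 257.1 and 263.2 bases in control, and with fragment length as a covariate the member median was 0.08. When only the trichloroethylene and control libraries at 6 h entered the fit, 4 of 142 tested members were called higher (2.82%, where 1.04% of all transcripts were) and 2 lower (1.41%, where 2.17% were). The median was 0.103 without trichloroethylene replicate 2, and 0.246 in limma on log2(TPM + 1), where that of all transcripts was 0.111.

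For the mean of TCDD and trichloroethylene against control at 6 h, 0 members were called higher (0.0% of all tested) and 0 lower (0.0%), with DESeq2 and limma also calling 0. The unadjusted counts were 14 higher, where 5.45% of all transcripts were, and 3 lower, where 4.45% were, which are 9.52% and 2.04% of 147. The median of the members was 0.12, beside 0.02 over all transcripts. It was 0.051 without control replicate 2, 0.064 without TCDD replicate 3, 0.078 without trichloroethylene replicate 2 and 0.058 with fragment length as a covariate. In limma on log2(TPM + 1) it was 0.225, where that of all transcripts was 0.123. No lowering with these compounds was thus detectable in this fit at 6 h, where the median SE of a member was 0.144.

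Acetaminophen at 6 h changed 64 of the 147 members. Of these, 46 fell (31.3% of 147, where 24.5% of all tested transcripts fell) and 18 rose (12.2%, where 24.2% of all rose). The median log2 change was -0.17 over all members, -0.60 in the 46 that fell and 0.63 in the 18 that rose, beside a median of 0.00 over all transcripts. Fragment length was 246.6 to 251.6 bases in these libraries, against 257.1 and 263.2 bases in control. With fragment length as a covariate, 46 members were lower and 26 higher, and the member median was -0.12. The calls over all transcripts were then 8130 in place of 7799. The clearest fall was in a member of 4553 bases, chosen by its p, which stood at 6.47, 6.21 and 5.97 TPM with acetaminophen, against 24.7 and 25.7 TPM in control (log2 change -1.97 ± 0.12, adjusted p = 2.2e-12). Its 24 h acetaminophen libraries had 21.5, 17.97 and 26.3 TPM, against 25.5, 27.9 and 20.7 TPM in control, a range that overlaps. That level near control at 24 h is a condition of the rule for every member and is no finding.

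Gentamicin at 6 h changed 13 of the 147 members: 7 rose (4.76%, where 8.34% of all rose) and 6 fell (4.08%, where 4.88% of all fell). The median was 0.04 over all members, 0.49 in the 7 that rose and -0.47 in the 6 that fell. The count was 4 without control replicate 2 and 7 without control replicate 3, where the calls over all transcripts were 881 and 980 in place of 2113. It was 8 without gentamicin replicate 2 and 7 without gentamicin replicate 3, with 1575 and 1588 calls over all transcripts, and without that last library the member median turned to -0.01. With fragment length as a covariate, 17 members were higher (11.6%, where 11.5% of all transcripts were) and 8 lower (5.44%, where 8.19% were). The median was at most 0.151 and at least -0.006 over the alternatives, and in limma on log2(TPM + 1), which gave 0.151, that of all transcripts was 0.092.

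The split that the rule imposed at 24 h, with TCDD and trichloroethylene on one side and acetaminophen and gentamicin on the other, was also tested between the compounds at 6 h. This comparison uses 12 libraries and no control, so a difference in it can come from either side. Against control at 6 h, acetaminophen had 46 members called lower and 18 higher, and gentamicin 6 lower and 7 higher. TCDD and trichloroethylene had 0. Relative to the mean of acetaminophen and gentamicin, 49 members were higher with TCDD and trichloroethylene (33.3% of 147, where 24.7% of all tested transcripts were higher) and 11 were lower (7.48%, where 23.7% were). The median log2 change was 0.19, beside 0.01 over all transcripts, with medians of 0.41 among those higher and -0.38 among those lower. Most called members thus differed in the direction opposite to the 24 h split. Fragment length was 249.9 to 278.2 bases in the TCDD and trichloroethylene libraries at 6 h, and 246.6 to 261.2 bases in those of acetaminophen and gentamicin. With fragment length as a covariate, 33 members were higher (22.4%, where 21.6% of all transcripts were) and 18 lower (12.2%, where 20.8% were), and the median was 0.09. The share of members called higher was then close to that of all transcripts.

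**Figure D5:**
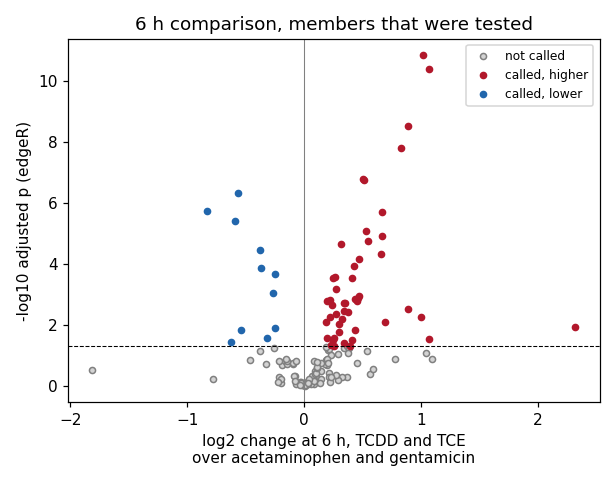
Each point is 1 of the 147 tested members at 6 h, with the log2 change of TCDD and trichloroethylene (TCE) over acetaminophen and gentamicin across and the -log10 adjusted p of edgeR up the side; the dashed line marks an adjusted p of 0.05. The 49 members called higher lie to the right and the 11 called lower to the left.

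The member with the smallest p among those higher in that comparison, of 2646 bases and chosen by that p, had 108.5, 110.7 and 123.0 TPM in the TCDD libraries and 121.8, 129.6 and 112.0 TPM in the trichloroethylene libraries at 6 h. It had 43.7, 45.8 and 49.4 TPM with acetaminophen and 60.1, 61.5 and 70.0 TPM with gentamicin, and at 102.5 and 93.9 TPM in control. The libraries of TCDD and trichloroethylene all lay above those of acetaminophen and gentamicin, and the log2 change between the pairs of compounds was 1.01 ± 0.07 (SE, edgeR adjusted p = 1.4e-11). At 24 h its TCDD libraries held 51.9, 43.6 and 66.7 TPM and its trichloroethylene libraries 44.05, 33.8 and 43.8 TPM, against 88.7, 96.7 and 74.45 TPM in control. Of the 4 transcripts given by identifier, ENSRNOT00000065677 was higher between the pairs of compounds at 6 h (0.46 ± 0.11, edgeR adjusted p = 0.0013). In the same comparison ENSRNOT00000023289 (-0.57 ± 0.07, adjusted p = 4.7e-07) and ENSRNOT00000009225 (-0.38 ± 0.07, adjusted p = 3.6e-05) were lower, and ENSRNOT00000048744 did not pass (0.19 ± 0.13, adjusted p = 0.21). For the mean of TCDD and trichloroethylene against control at 6 h, none of the 4 was called. There ENSRNOT00000065677 had a log2 change of -0.23 ± 0.15 (edgeR adjusted p = 0.56), so it did not lie above control.

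The 24 h values were also set against the 6 h libraries of the same treatment. These ratios use 24 h values from the rule and are given without a test. The median log2 ratio of the members at 24 h over 6 h was -1.14 with TCDD and -0.78 with trichloroethylene, 0.41 with acetaminophen and 0.05 with gentamicin, against 0.26 in control. Over the 13730 transcripts the same medians were -0.37 with TCDD, 0.05 with trichloroethylene, 0.34 with acetaminophen, -0.15 with gentamicin and 0.16 in control. The acetaminophen median of the members was thus close to that of all transcripts. With TCDD, 131 members were lower at 24 h than at 6 h by 0.6 or more, where 39.3% of the 13730 transcripts were. With trichloroethylene 107 were, where 11.9% of the 13730 were. In control, 41 members were higher at 24 h than at 6 h by 0.6 or more, where 14.5% of the 13730 were, and 1 was lower, where 4.22% were. In most members the 24 h level with TCDD or trichloroethylene was low beside the same compound's 6 h level. The rule chose low 24 h levels of these compounds against the 24 h controls, so these counts follow in part from the choice.

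Over all 10 group means, the lowest was TCDD at 24 h in 109 members and trichloroethylene at 24 h in 18. It was acetaminophen at 6 h in 14 members and control at 6 h in 7. The highest group was trichloroethylene at 6 h in 31, control at 24 h in 30 and gentamicin at 24 h in 28. Among the 6 h groups alone, trichloroethylene was the highest in 69 members and acetaminophen the lowest in 92. These ranks use TPM as deposited, and no share over the 13730 transcripts stands beside them. The median L over the 13730 at 6 h was 0.13 with trichloroethylene and -0.09 with acetaminophen. How far the 6 h ranks carry that shift was not tested. The counts of 109 and 18 follow largely from the rule, which chose low 24 h levels with these compounds.

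The members had no common size. Transcript length ran from 279 to 9763 bases with a median of 1893, beside 1956 over the 13730 transcripts, and the quartiles were 1066 and 3238 bases beside 1230 and 3072. Their level in control at 24 h ran from 1.14 to 563 TPM with a median of 34.9, beside 17.6 TPM over the 13730. At least 100 TPM was reached by 36 members, and 37 were under 10 TPM. By length, the median TCDD L was -1.24 in the 31 members under 1000 bases, -1.21 in the 75 of 1000 to 3000 bases and -1.31 in the 44 longer ones. Over the 13730 transcripts the same medians were -0.41, -0.23 and -0.73. The trichloroethylene medians of the members were -0.92, -0.80 and -0.78 in that order of length, beside -0.07, 0.07 and -0.07 over the 13730. By level, the median TCDD L was -0.99 in the members under 10 TPM, -1.36 in the 77 between 10 and 100 TPM and -1.42 in those above, and the trichloroethylene medians were -0.80, -0.83 and -0.77. The 1 TPM added in L makes it smaller at low levels, and no split of the 13730 by level is given. These medians therefore do not show that abundant members changed more with TCDD.

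Members often shared reads with other transcripts. Estimated counts were whole in every library for 57 of the 150, or 38.0%, beside 61.3% of the 13730 transcripts. In the 93 others the authors' tool had divided reads between transcripts, so their values may hold a shift between isoforms or near-identical genes, which was not tested. The median L of the 57 was -1.47 with TCDD and -0.87 with trichloroethylene, and that of the 93 was -1.20 and -0.80. The rule fixed that both lie at -0.6 or lower, so these medians do not bear on the sharing of reads.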

How the data were processed

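The authors quantified transcripts with the pseudoaligner kallisto 0.43, per the submitters' processing notes. Per the file headers, the deposited tables hold estimated counts, which need not be whole, and TPM values, with the length and effective length of each transcript. The sources used here do not give the transcript set, its build, the strand setting or any sequencing batch.

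The members follow from group means of the deposited TPM values. Estimated counts were rounded and filtered with filterByExpr at a minimum count of 10, which left 15990 transcripts. A single quasi-likelihood model (edgeR 4.0.16, R 4.3.3) with TMM factors, robust dispersion and a coefficient per group was fitted to all 29 libraries. The 6 comparisons at 6 h were contrasts of it, and p-values were adjusted over all tested transcripts. The edgeR steps were also run on simulated counts with changes in the TCDD libraries at 6 h alone. That is a simpler setting than these data, and its outcome is not given here. A count was taken as whole within 1e-06. Alternatives included DESeq2 1.42.0, limma 3.58.1 on log2(TPM + 1), other scalings and filters, and leaving out each library.

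The members, comparisons and lists were chosen with earlier results of these data known. Planned gene lists and cell type markers need gene names and were not used. The identifiers printed followed a rule set with the comparisons. They are the 2 members with the lowest trichloroethylene L among those with at least 10 TPM in control at 24 h, and the 2 with the smallest p among those called higher with a compound at 6 h, all with at least 3 counts in every library. Intervals given as SE cover the spread between libraries.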

Additional observations from a re-analysis of the deposited data

How the results depend on the processing

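For TCDD at 6 h and for the mean of TCDD and trichloroethylene against control at 6 h, the count of called members was 0 under every alternative run. With trichloroethylene it was 0 under all but 1, the fit limited to the compared groups, which called 6 of 142 members and 450 transcripts in all. Against control at 6 h, the acetaminophen count of 64 ran from 49 to 60 when 1 library was left out, and was 30 over the 56 tested members with whole counts, a subset chosen after the data were seen. With 1 library left out, the acetaminophen calls over all transcripts ran from 6265 to 7229 in place of 7799. The member count was 72 with fragment length as a covariate (8130 transcripts in all, in place of 7799). The fit limited to the compared groups called 84 of 142 members, 55 lower and 29 higher, and 9154 transcripts in all. The gentamicin count of 13 ran from 4 to 9 when 1 library was left out (881 to 1687 transcripts in all, in place of 2113). It was 8 on log2(TPM + 0.1) in limma (1637 in all), 25 with fragment length as a covariate (3146 in all) and 8 over members with whole counts. Between the pairs of compounds at 6 h the count of 60 ran from 50 to 63 when 1 library was left out, and was 28 over members with whole counts. With 1 library left out, the calls over all transcripts ran from 7134 to 7606 in place of 7739. Counts over whole counts draw on fewer members, and for the other changes the cause was not tested. Of the members by the rule, at least 100 of the 150 remained when 1 library was left out, the fewest without control replicate 3 at 24 h, 123 with a control mean of 5 to 500 TPM, and 70 of 138 after rescaling. With 1 replicate number left out of every 24 h group, 80 to 93 remained. Same-numbered libraries of different groups did not deviate together: their deviations correlated at between -0.144 and 0.198 at 6 h, median 0.008. With a replicate block, which changed no count by over 1.5 times, the counts were 61 for acetaminophen, 12 for gentamicin, 59 between the pairs of compounds and 0 for the other 3 comparisons. The member median turned below 0 without TCDD replicate 3 (-0.027) and without gentamicin replicate 3 (-0.006), and no other called value or median changed sign. The median SE of 0.161 limits what could be seen for members at 6 h against 2 controls.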

Other observations

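The mirrored rule, with an L of 0.6 or higher for TCDD and trichloroethylene at 24 h and the same bounds for acetaminophen and gentamicin, found 104 transcripts, all of which were kept. Their median L at 6 h was 0.06 with TCDD and -0.07 with trichloroethylene. The members described above had 0.18 with TCDD and 0.25 with trichloroethylene at 6 h on the same scale, beside 0.15 and 0.13 over the 13730 transcripts at that control level. With acetaminophen at 6 h the medians were -0.15 for the raised transcripts and -0.20 for the lowered ones, beside -0.09 over the 13730. The difference between the sets was not tested, and the 6 h comparisons share their controls.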
